A study of Mus musculus with 12 samples.

Results

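The genes described here were Zscan4a, Zscan4b, Zscan4c, Zscan4d, Zscan4e, Zscan4f, Zfp352, Tcstv1 and Tcstv3, 9 of the 54446 genes in the RNA-seq tables. They were chosen by symbol, as genes known for a burst of expression in the 2-cell mouse embryo, and the rule uses the symbols alone. Zscan4 genes encode proteins with a SCAN domain and zinc fingers that are linked to telomere lengthening and genome stability in mouse embryonic stem cells (mESCs). Zfp352 encodes a zinc finger protein, and Tcstv1 and Tcstv3 belong to a family of variable genes named for their expression at the 2-cell stage. In cultures of mESCs, these genes are typically silent in most cells and are switched on together in a rare, passing 2-cell-like state, downstream of the transcription factor Dux.

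The measurements came from E14TG2a mESCs, an established embryonic stem cell line, and from NIH3T3 cells, an established line of mouse embryonic fibroblasts. Per the growth protocol, both were kept in the same GMEM medium with serum and LIF, and no agent was added to any group. Each cell type gave 1 RNA-seq library. ChIP-seq peak lists covered Ctr9-GFP and H3K27ac in both cell types and for NELFA-GFP, RNAPII Ser5p and RNAPII Ser2p in mESCs, also with 1 library per list. Ctr9, a subunit of the Paf1 elongation complex, carried GFP from a knock-in at its own gene, and NELFA, a subunit of the pausing factor NELF, carried GFP in a separate mESC line, which per the study's text was also used for RNAPII Ser5p. The labels give only the cell line for the RNA-seq libraries, so whether those cells carried a tag is not stated. Every group held 1 library, so no difference has a replicate check, and all intervals cover counting error only.

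The mESC RNA-seq library held 26400407 estimated counts and the NIH3T3 library 28849497. The 7 peak lists held between 1675 and 44748 peaks, and their read depths are unknown. The cell types matched their labels: the mESC markers Pou5f1, Nanog, Sox2, Zfp42 and Esrrb lay between 211 and 1402 TPM in mESCs, where TPM is a gene's share of all transcripts after scaling by length, and at or under 0.511 TPM in NIH3T3 cells, and the fibroblast markers Col1a1, Col1a2, Thy1, Vim and Fn1 lay between 168 and 1829 TPM in NIH3T3 cells. Vim and Fn1 were also measured at 162 and 75.7 TPM in mESCs.

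The 6 Zscan4 genes form a cluster on chromosome 7. In mm10, Zscan4a lies at chr7:10794242-10799057 on the minus strand and is annotated as an unprocessed pseudogene, and the other 5 are annotated as protein-coding. Zscan4b lies at chr7:10900740-10905050 (minus), Zscan4c at chr7:11005745-11010547 (plus), Zscan4d at chr7:11161374-11166159 (minus), Zscan4e at chr7:11306378-11310682 (minus) and Zscan4f at chr7:11397915-11402318 (plus). With 5 kb on each side the cluster spans 618 kb. From Zscan4a to Zscan4f, without these flanks, it holds 37 annotated genes, of which 28 are pseudogenes. Tcstv1 lies at chr13:119893388-119894785 (minus) and Tcstv3 at chr13:120316878-120318178 (plus), near the end of chromosome 13. Zfp352 lies at chr4:90218820-90225702 (plus), and no other annotated gene overlaps it.

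The Zscan4 copies are nearly identical in sequence, which bears on every value below. The stretch of 40 bases shown here is bases 821 to 860 of the Zscan4c transcript. Among stretches of this length inside its coding sequence and without gaps in the alignment, it is where the 6 copies differ most. It differs in 8 of its 40 positions. Capitals mark the bases that are unlike Zscan4c.
Zscan4a: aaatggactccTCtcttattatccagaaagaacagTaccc
Zscan4b: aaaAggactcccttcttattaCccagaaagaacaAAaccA
Zscan4c: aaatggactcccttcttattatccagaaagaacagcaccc
Zscan4d: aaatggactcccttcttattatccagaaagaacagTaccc
Zscan4e: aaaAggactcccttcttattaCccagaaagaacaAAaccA
Zscan4f: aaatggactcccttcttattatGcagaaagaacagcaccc

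In this stretch Zscan4b and Zscan4e had the same sequence. Over the bases aligned between the transcripts of a pair, with gaps left out, the copies were between 96.6% and 99.7% identical. Zscan4b and Zscan4e were the closest pair, with 1669 of 1674 compared bases identical, followed by Zscan4c and Zscan4f with 1797 of 1806 (99.5%). Tcstv1 and Tcstv3 were less alike, at 85.2% over 779 compared bases.

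The program that counted the reads assigns them through words of 31 bases, so a word held by several genes cannot place a read in any single gene. Of the 31-base words in the Zscan4b transcripts, 4.77% occurred in no other gene. The same share was 6.30% for Zscan4e, 8.28% for Zscan4f and 8.46% for Zscan4c. It was higher for Zscan4a, at 23.3%, and for Zscan4d, at 34.97%. The level of an individual Zscan4 copy therefore rests on few distinguishing words, and for Zscan4b, Zscan4c, Zscan4e and Zscan4f on fewer than 1 word in 10.

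The words of Zscan4b and Zscan4e overlapped most, with 1633 shared words, or 90.6% of those of Zscan4b and 91.1% of those of Zscan4e. Zscan4c and Zscan4f shared 81.6% and 82.9% of their words with Zscan4-ps2, another copy of the family just past the cluster. Zfp352 could be told from other genes over 78.5% of its words, with 16.7% shared with the pseudogene Zfp353-ps. Tcstv1 was distinct over 71.4% and Tcstv3 over 49.0%, and Gm21818, a gene between them, shared 21.6% of the words of Tcstv1 and 30.97% of those of Tcstv3. Taking the 6 Zscan4 genes as a single unit, 53.8% of their 5161 words occurred in no gene outside the unit, 45.0% also occurred in a Zscan4-ps copy and 5.87% in further genes, some words in both.

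**Figure D1:**
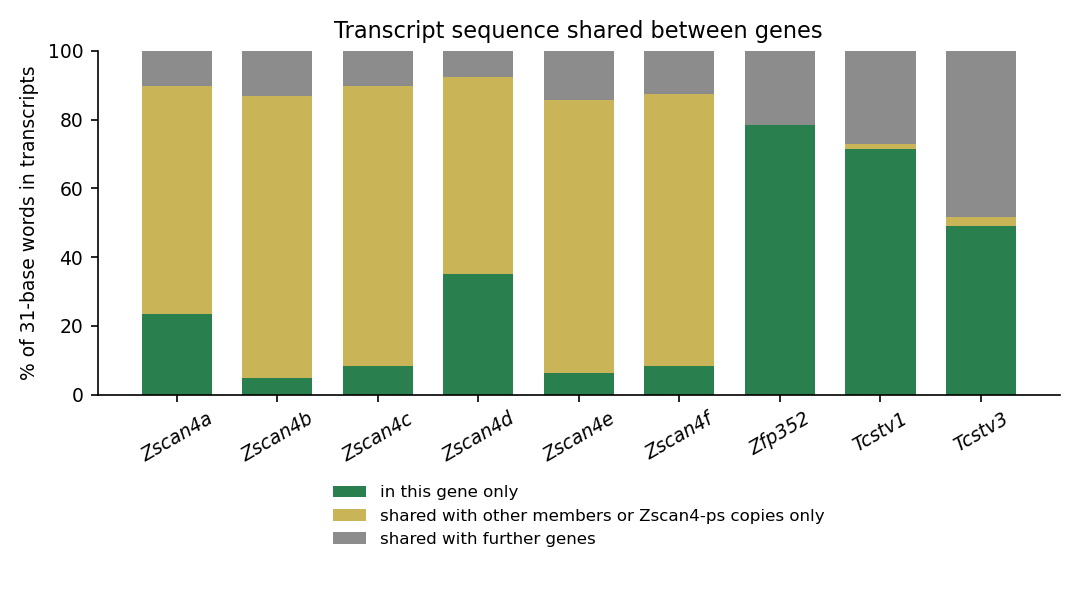
Share of the 31-base words in each gene's annotated transcripts (vertical axis, percent) that occur in that gene only (green), only in other genes of the group or the Zscan4-ps copies as well (yellow), or also in further genes (grey). The 6 Zscan4 bars are mostly yellow, with 4.77% to 34.97% green, and Zfp352 has the largest green part at 78.5%.

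The upstream sequences are shown for Zscan4b, Zscan4c and Zfp352, to show how alike the Zscan4 promoters are and how far they differ from that of Zfp352. They are RefSeq sequences of GRCm38.p6, the 250 bases before the annotated transcription start site (TSS), at chr7:10905051-10905300 (minus strand), chr7:11005495-11005744 (plus strand) and chr4:90218570-90218819 (plus strand), and 5 of the 9 genes had an entry. Capitals mark TATAAA, the core letters of a TATA box, and GACAACACAC, the most frequent 10-base word of the Zfp352 window. Both motifs were picked after the windows were seen, searched on both strands, and do not overlap each other.
Zscan4b: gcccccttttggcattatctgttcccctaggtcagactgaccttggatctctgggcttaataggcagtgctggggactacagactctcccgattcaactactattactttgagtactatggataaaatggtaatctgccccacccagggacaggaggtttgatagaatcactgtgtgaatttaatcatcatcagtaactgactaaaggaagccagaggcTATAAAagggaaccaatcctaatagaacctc
Zscan4c: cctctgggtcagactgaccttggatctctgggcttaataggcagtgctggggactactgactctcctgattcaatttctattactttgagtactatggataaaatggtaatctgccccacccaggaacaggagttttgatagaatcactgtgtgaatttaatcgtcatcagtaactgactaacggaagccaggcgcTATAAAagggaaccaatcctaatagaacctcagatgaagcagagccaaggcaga
Zfp352: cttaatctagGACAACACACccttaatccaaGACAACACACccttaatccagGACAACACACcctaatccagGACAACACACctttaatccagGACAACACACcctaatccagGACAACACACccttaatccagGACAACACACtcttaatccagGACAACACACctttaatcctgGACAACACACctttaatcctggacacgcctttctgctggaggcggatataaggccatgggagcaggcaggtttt

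The promoters of Zscan4b, Zscan4c, Zscan4d and Zscan4f were between 95.3% and 99.3% identical over their shared bases, Zscan4c and Zscan4f being the closest. TATAAA occurred once in each of the 4, starting 31 bases before the TSS in Zscan4b and Zscan4f, 54 in Zscan4c and 65 in Zscan4d. The same letters occurred in 13.6% of all 32851 promoters of the RefSeq table. Zfp352 had no TATAAA in its window and held 9 copies of GACAACACAC, from 240 to 65 bases before the TSS, and this unit occurred in 17 of the 32851 promoters. Only exact letters were searched, and the Zfp352 window holds the variant TATAAG, so it cannot be said to lack a TATA box. These matches describe letters and are not measured binding sites.

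To ask whether these genes were expressed in either cell type, their estimated counts were summed over transcripts. They were low in both libraries. Of the 9 genes, 5 reached 3 estimated counts in mESCs, where 35.5% of all genes did, and 2 reached it in NIH3T3 cells, where 32.7% of all genes did. By the TPM of a gene's highest transcript, which is the level used throughout, none of the 9 reached 1 TPM in either library, whereas 51.3% of protein-coding genes did in mESCs and 49.2% in NIH3T3 cells. Of their 15 annotated transcripts, 7 were above 0 in mESCs and 4 in NIH3T3 cells. Of all 137767 transcripts, 63644 were above 0 in mESCs and 60920 in NIH3T3 cells, so the share in mESCs was close to that of all transcripts.

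Zscan4f had the highest level, with 21.8 estimated counts in mESCs (95% exact Poisson interval 13.8 to 33.3) and 6.78 in NIH3T3 cells (2.81 to 14.4). Its main transcript was at 0.639 and 0.187 TPM. Allowing for the library totals, the ratio of mESCs to NIH3T3 cells was 3.43, with an interval from counting of 1.42 to 9.52. Even so, the level in mESCs was above that of only 46.0% of protein-coding genes. In mESCs its counts were split between the full transcript, with 18.5, and a shorter one, with 3.30, and the TPM values of both added up to 1.24.

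Zscan4b came next, with 15.3 estimated counts in mESCs (8.40 to 24.7), or 0.563 TPM, and 0 in NIH3T3 cells. Allowing for the library totals, its estimated count was 5.57 times the floor of 3 counts in the NIH3T3 library. This ratio uses the point estimate in mESCs and is not a lower limit. The lower end of its interval, 8.40, lay above 3.69, the upper end of the interval for a count of 0. Zscan4a, the copy annotated as a pseudogene, had 6.11 estimated counts in mESCs (2.202 to 13.1), or 0.160 TPM, and 0 in NIH3T3 cells. Since the interval for a count of 0 reaches 3.69, above the lower end of 2.202, Zscan4a could not be ranked between the cell types. The values of both copies depend on how reads were divided among the family.

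Zscan4d was close to the floor in both libraries, with 3.21 estimated counts in mESCs (0.619 to 8.77) and 2.22 in NIH3T3 cells (0.242 to 7.22). Its ratio of 1.64 had a counting interval from 0.188 to 19.6, so no difference was detectable at this depth. Zscan4c and Zscan4e were at 0 in both libraries. The limit of 3 counts is 0.0800 TPM for Zscan4c and 0.112 TPM for Zscan4e in mESCs.

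The copies at 0 were each near-identical to a copy with counts. Within the pair Zscan4b and Zscan4e all 15.3 counts of mESCs were given to Zscan4b, and within the pair Zscan4c and Zscan4f all 21.8 were given to Zscan4f. Which copy of a pair produced the RNA is uncertain at this level of identity, so the family total is the firmer value. The 6 Zscan4 genes together had 46.4 estimated counts in mESCs (33.7 to 61.4) and 9 in NIH3T3 cells (4.12 to 17.1). The depth-adjusted ratio was 5.59 (2.70 to 12.98).

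The family total could be closed further with the copies Zscan4-ps1, Zscan4-ps2 and Zscan4-ps3, which had 3.51, 0 and 6.12 estimated counts in mESCs and 0 in NIH3T3 cells. With them the 9 copies summed to 56.0 in mESCs and 9 in NIH3T3 cells, within 6e-05 of whole numbers, although the values of single copies were fractions. The ratio was then 6.80 (3.34 to 15.6). Outside these copies, 2 pseudogenes shared words with Zscan4 genes. Gm17737 was at 0 in both libraries, and Gm45551, which shared between 96 and 189 words with each of the 6 genes, had 35.5 estimated counts in mESCs and 109 in NIH3T3 cells. Whether reads from Zscan4 genes were given to Gm45551 or the reverse was not tested.

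Tcstv3 had 3.27 estimated counts in mESCs (0.619 to 8.77), or 0.295 TPM, and 0 in NIH3T3 cells. Tcstv1 was at 0 in both libraries. The lower end of the Tcstv3 interval in mESCs lay under 3.69, the upper end of the interval for a count of 0 in NIH3T3 cells. With so few counts, neither gene could be ranked between the cell types.

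Zfp352 was the only one of the 9 genes with more counts in NIH3T3 cells, with 1 estimated count in mESCs (0.0253 to 5.57) and 4 in NIH3T3 cells (1.09 to 10.2). All of them fell on the shorter, single-exon transcript, at 0.0376 and 0.140 TPM. The ratio of mESCs to NIH3T3 cells was 0.273 with a counting interval from 0.00555 to 2.76, which covers equal levels. Its direction was thus opposite to that of Zscan4f, but within counting error.

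**Figure D2:**
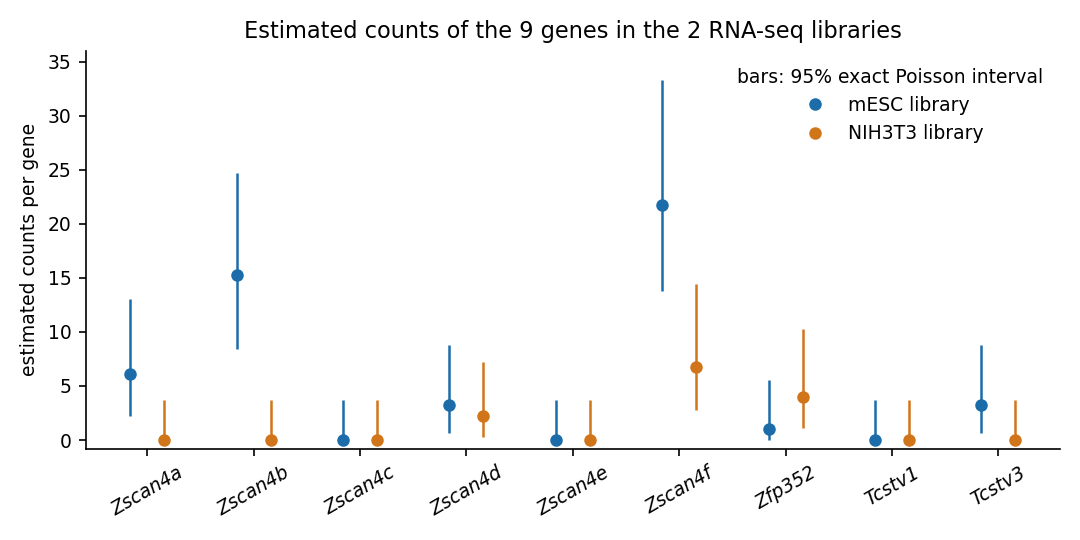
Estimated counts per gene (vertical axis) of the 9 genes in the mESC library (blue) and the NIH3T3 library (orange), with 95% exact Poisson intervals as bars. Zscan4f and Zscan4b stand highest in mESCs at 21.8 and 15.3, Zfp352 is the only gene with a higher point in NIH3T3 cells, and Zscan4c, Zscan4e and Tcstv1 lie at 0 in both.

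None of the 9 genes reached a 4-fold difference between the libraries on the scale of TPM plus a pseudocount of 1, where 5.52% of the 26357 genes above 0 in either library were at least 4-fold higher in mESCs and 4.83% at least 4-fold lower. On this log2(TPM + 1) scale, the differences between mESCs and NIH3T3 cells were 0.64 for Zscan4b, 0.46 for Zscan4f, 0.37 for Tcstv3, 0.21 for Zscan4a and 0.04 for Zscan4d. Zfp352 differed by -0.14, and 3 genes were at 0 in both. The pseudocount is larger than every level measured here, so these values understate the ratios of counts given above. The median was 0.04 over the 9 genes and 0.04 over the 26357 genes. In bulk RNA-seq, fewer cells expressing a gene and less RNA per cell cannot be told apart.

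To ask whether the transcription machinery or active chromatin was found at these genes, peaks of the 7 lists were searched over each gene body with 5 kb on each side. None of the 9 genes met a peak in any list, in its body or its flanks. Among protein-coding genes, 65.4% met at least 1 peak. The shares in mESCs were 45.6% for Ctr9, 44.6% for H3K27ac, 10.8% for NELFA, 13.4% for RNAPII Ser5p and 7.52% for RNAPII Ser2p. In NIH3T3 cells, 26.9% met a Ctr9 peak and 55.9% an H3K27ac peak.

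Genes of low level are a nearer comparison, though not for all 9 genes. Zscan4c, Zscan4e and Tcstv1, at 0, and Zscan4a, annotated as a pseudogene, fall outside the set used. Protein-coding genes at 0 were not counted. Of the 4919 protein-coding genes above 0 and under 1 TPM in mESCs, 52.7% met a peak of any list, 23.3% a Ctr9 peak in mESCs and 19.9% an H3K27ac peak in mESCs. For NELFA, RNAPII Ser5p and RNAPII Ser2p the shares were 3.13%, 4.35% and 3.01%, so the lack of a peak in those 3 lists was also found at nearly all other genes of this level. The 9 genes are not independent of each other, since 6 of them share a cluster.

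**Figure D3:**
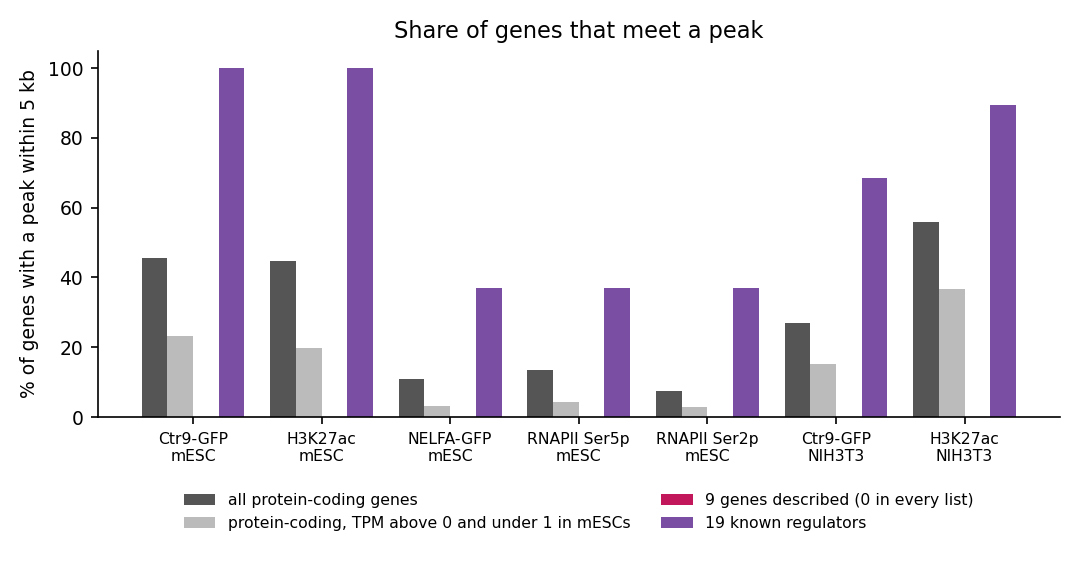
Percent of genes with a peak within 5 kb of the gene body (vertical axis) in each of the 7 peak lists, for all protein-coding genes (dark grey), protein-coding genes above 0 and under 1 TPM in mESCs (light grey), the 9 genes described (red, at 0 in every list) and 19 known regulators of the 2-cell-like state (purple). The regulators reach all 19 genes for Ctr9 and H3K27ac in mESCs.

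The absence of peaks reached well beyond the genes. The 6 Zscan4 genes lay in a single stretch of 1149 kb without a peak of any list, bounded by an H3K27ac peak of NIH3T3 cells on the left and an H3K27ac peak of mESCs on the right. Stretches at least as long held 3.95% of 21905 protein-coding genes. Zfp352 lay in a stretch of 757 kb (7.16% of genes in one as long) and Tcstv1 in one of 498 kb (12.2%). Tcstv3 had the shortest, of 131 kb, which ran to the end of the chromosome (28.2%). This length includes bases unknown in the assembly that could hold no peak, 1539 of them within 5 kb of Tcstv3. Those further on were not counted, so how much of the 131 kb could hold a peak is not known.

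Measured from the TSS of each gene to the nearest summit, the list with the smallest median distance was H3K27ac of mESCs, with a lowest distance of 26.4 kb, a median of 334 kb and a highest of 534 kb. Ctr9 summits of mESCs were between 133 and 1686 kb away, with a median of 1175 kb. RNAPII Ser5p summits began at 1437 kb, NELFA summits at 1524 kb and RNAPII Ser2p summits at 1530 kb. In NIH3T3 cells, Ctr9 summits lay between 103 and 2124 kb away and H3K27ac summits between 104 and 903 kb. Thus no gene of the group had a NELFA, RNAPII Ser5p or RNAPII Ser2p summit within 1 Mb. The nearest Ctr9 summits to any of the 9 genes lay 133 kb away in mESCs and 103 kb away in NIH3T3 cells. The mESC lists differ in size, with 1980 NELFA, 4490 RNAPII Ser5p and 1675 RNAPII Ser2p peaks against 44748 Ctr9 peaks. Distances are therefore not comparable between lists, and the share of all genes without such a summit within 1 Mb was not counted.

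**Figure D4:**
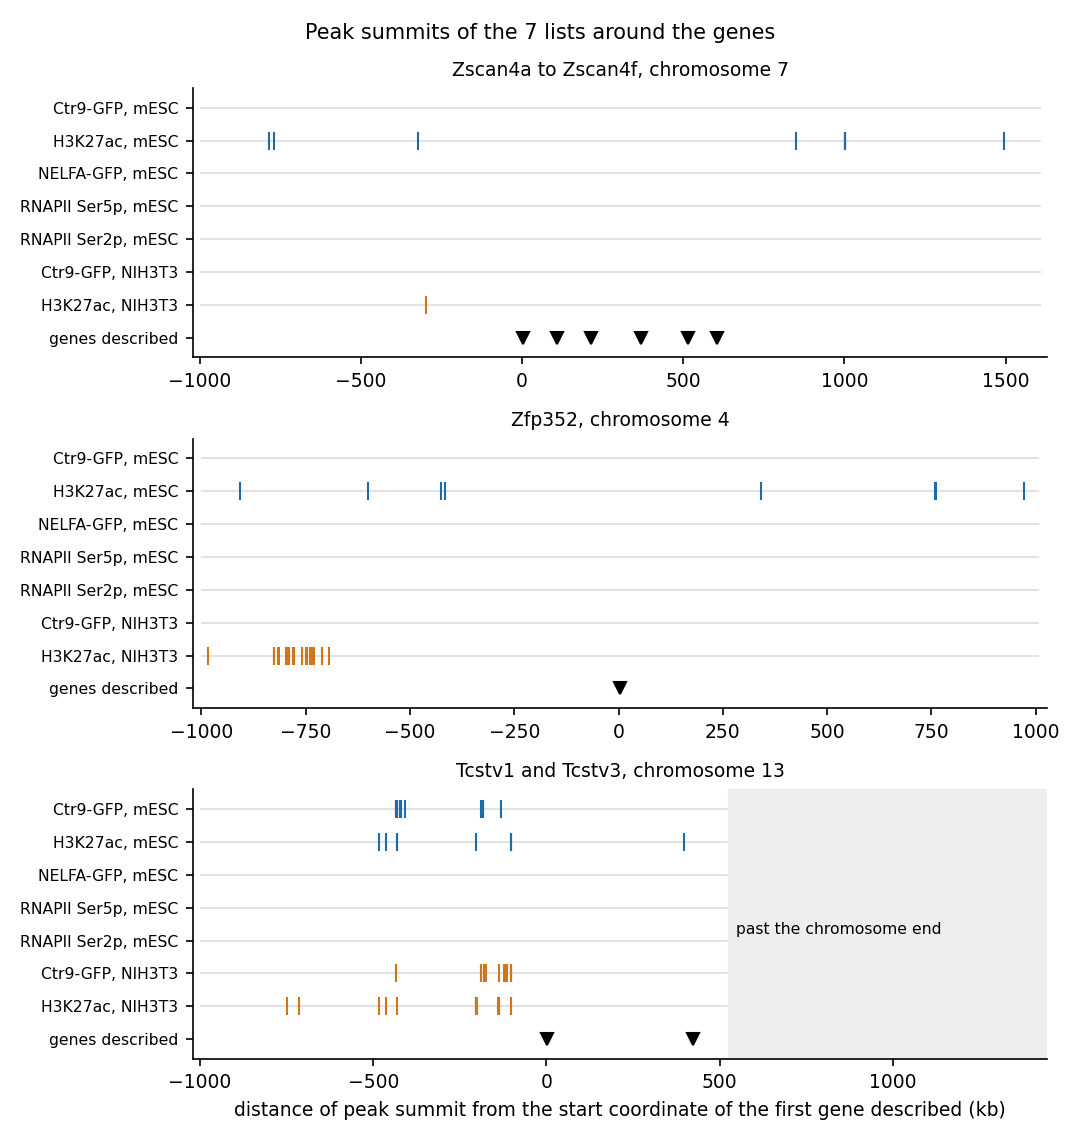
Peak summits (ticks) of the 7 lists, mESCs in blue and NIH3T3 cells in orange, against distance in kb from the start coordinate of the first gene of each cluster, with the genes as black triangles. The Zscan4 genes and Zfp352 lie in wide empty stretches of 1149 and 757 kb, and a single H3K27ac peak of mESCs stands just before Tcstv3.

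A single peak fell inside an interval spanned by the genes. This H3K27ac peak of mESCs lay at chr13:120290311-120290960 between Tcstv1 and Tcstv3, with its summit 26.4 kb before the TSS of Tcstv3. H3K27ac is a histone mark of active promoters and enhancers. Its fold enrichment was 4.85 and its −log10 q was 14.6, and no other list had a peak there. The peak was chosen for description after its values were seen. The 200 bases around its summit, chr13:120290382-120290581 on the plus strand of mm10, are shown because they mark the only enriched site near these genes, and no letter is singled out.
H3K27ac peak: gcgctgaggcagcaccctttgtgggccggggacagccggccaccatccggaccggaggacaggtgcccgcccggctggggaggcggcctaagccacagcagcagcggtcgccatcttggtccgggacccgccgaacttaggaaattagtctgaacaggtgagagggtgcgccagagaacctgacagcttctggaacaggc

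The sequence of this peak was highly repeated: its 31-base words had a median of 1799 copies in the mouse chromosomes, and 4.68% occurred once. Repeats matter for the genes too. Within each gene body and 5 kb on each side, the share of 31-base words that occur once in the genome was 6.09% for Zscan4f, 7.63% for Zscan4e, 7.74% for Zscan4b and 10.1% for Zscan4c. It was 33.3% for Zscan4a, 38.9% for Zscan4d, 31.9% for Tcstv1, 55.5% for Zfp352 and 61.7% for Tcstv3. With words of 51 bases the shares lay between 12.0% for Zscan4f and 77.1% for Tcstv3.

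A read from a sequence with several copies is placed at only 1 of them by the aligner, so reads of 1 Zscan4 copy can be placed at another. The part of this in the absence of peaks was not tested. Around Zfp352 and Tcstv3 most readable words were unique. Of the 11301 bases around Tcstv3, 1539 are unknown in the assembly and could hold no peak. Reads in blacklisted regions were removed before peaks were called, and how much of these loci that covers is not given in the sources used here.

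The nearest protein-coding genes on each side of the clusters were also low. Vmn1r71, a vomeronasal receptor gene 39.9 kb before Zscan4a, had 1 estimated count in mESCs and 0 in NIH3T3 cells. Zscan4-ps2, 112 kb after Zscan4f, had 0 in both, D13Ertd608e before Tcstv1 had 2 in both, and Dmrta1, 524 kb before Zfp352, had 1 and 0. Elavl2, which encodes a neuronal RNA-binding protein and lies 1025 kb after Zfp352, was the exception with 7.95 and 5.04 TPM, and it met 1 Ctr9 peak in mESCs and 1 H3K27ac peak in NIH3T3 cells. The protein-coding genes between Tcstv1 and Tcstv3 included Gm21761, with 27.7 estimated counts in mESCs and 1 in NIH3T3 cells. Its mESC count was the highest of the protein-coding genes there.

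Other genes of the 2-cell-like state were then compared, from a list of 35 genes that holds Duxf3, which encodes Dux, and members of the Usp17l, Tdpoz and Tcstv-like families. The list also holds Zscan4-ps1, Zscan4-ps2 and Zscan4-ps3, which are already in the family total above. By TPM the 35 genes were low as well. None reached 1 TPM, where 51.3% of protein-coding genes did in mESCs and 49.2% in NIH3T3 cells. Of the 35, 16 reached 3 estimated counts in mESCs, where 35.5% of all genes did, and 5 in NIH3T3 cells, where 32.7% did. At 0 in both were 13, where 26357 of all 54446 genes were above 0 in either library. By TPM, with a difference of any size counted, 19 were higher in mESCs and 3 lower. The counts summed to 144 in mESCs against 69 in NIH3T3 cells. Some differences were minute. Gm4340 counted as higher on 0.000655 estimated counts in mESCs, and Gm12794 as lower on 0.0273 in NIH3T3 cells. The share of all genes that were higher in mESCs was not counted, so no direction is read from these numbers. Most of the NIH3T3 counts came from Sp110, with 28.9, and Usp17la, with 26.6. None of the 35 was 4-fold different, where 5.52% of the 26357 genes above 0 in either library were 4-fold higher in mESCs and 4.83% lower. The median log2 difference was 0.01. Duxf3, the gene upstream of the group, had 3 estimated counts in mESCs and 0 in NIH3T3 cells.

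The 5 highest of these genes in mESCs were Gm21761 with 0.993 TPM, Gm4027 with 0.415, Gm2016 with 0.394, Tmem92 with 0.388 and Sp110, an immune-related nuclear protein gene, with 0.372. By the TPM of its highest transcript, Sp110 was at a like level in NIH3T3 cells, 0.362 TPM. Its counts summed over transcripts were not alike, with 8.49 in mESCs and 28.9 in NIH3T3 cells. The other 4 were at or under 0.0408 TPM in NIH3T3 cells. Within 5 kb, 2 of the 35 genes met a peak of any list, where 65.4% of protein-coding genes did. Gm8994 met 1 H3K27ac peak in mESCs, and Usp17la, a deubiquitinating enzyme gene, met 2 H3K27ac peaks in NIH3T3 cells.

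Genes known to activate or repress the 2-cell-like state stood in contrast. The list held 19, among them the activators Dppa2, Dppa4 and Nelfa and the repressors Trim28, Setdb1, Kdm1a, Chaf1a and Rif1. All 19 were above 1 TPM in mESCs, between 10.9 and 1260 TPM with a median of 41.0, and 17 were in NIH3T3 cells. All 19 met a Ctr9 peak and an H3K27ac peak in mESCs, 7 each met a NELFA, RNAPII Ser5p or RNAPII Ser2p peak, 13 a Ctr9 peak in NIH3T3 cells and 17 an H3K27ac peak there. Over all protein-coding genes the shares in mESCs were 45.6% for Ctr9, 44.6% for H3K27ac, 10.8% for NELFA, 13.4% for RNAPII Ser5p and 7.52% for RNAPII Ser2p. In NIH3T3 cells they were 26.9% for Ctr9 and 55.9% for H3K27ac. Shares over genes as highly expressed as the regulators were not counted, so these peaks may be ordinary for such genes.

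Among the highest in mESCs were Ncl, encoding nucleolin, with 1260 TPM against 1054 in NIH3T3 cells, and Trim28, a co-repressor that acts on retroelements, with 665 against 200. Sumo2, which encodes a small protein modifier, had 424 against 361 TPM. Dppa4 had 117 TPM in mESCs and 0 in NIH3T3 cells. With its partner Dppa2, at 61.1 and 0.415 TPM, and Rif1, at 114 and 25.9 TPM, it was among the 3 regulators at least 4-fold higher in mESCs on the scale of TPM plus 1, and none was 4-fold lower. Dppa2 and Rif1 are named after their values were seen, as is Nelfa.

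Nelfa, whose product was also the GFP-tagged protein of the NELFA library, had 35.8 TPM in mESCs and 16.3 in NIH3T3 cells. Its own gene met 3 Ctr9 peaks in mESCs, the strongest at a fold enrichment of 5.39, and 1 NELFA peak at 4.90. In the same mESC lists, neither NELFA nor Ctr9 had a peak at any of the 9 genes. None of the 9 genes reached 1 TPM in the library in which all 19 regulators were above it.

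**Figure D5:**
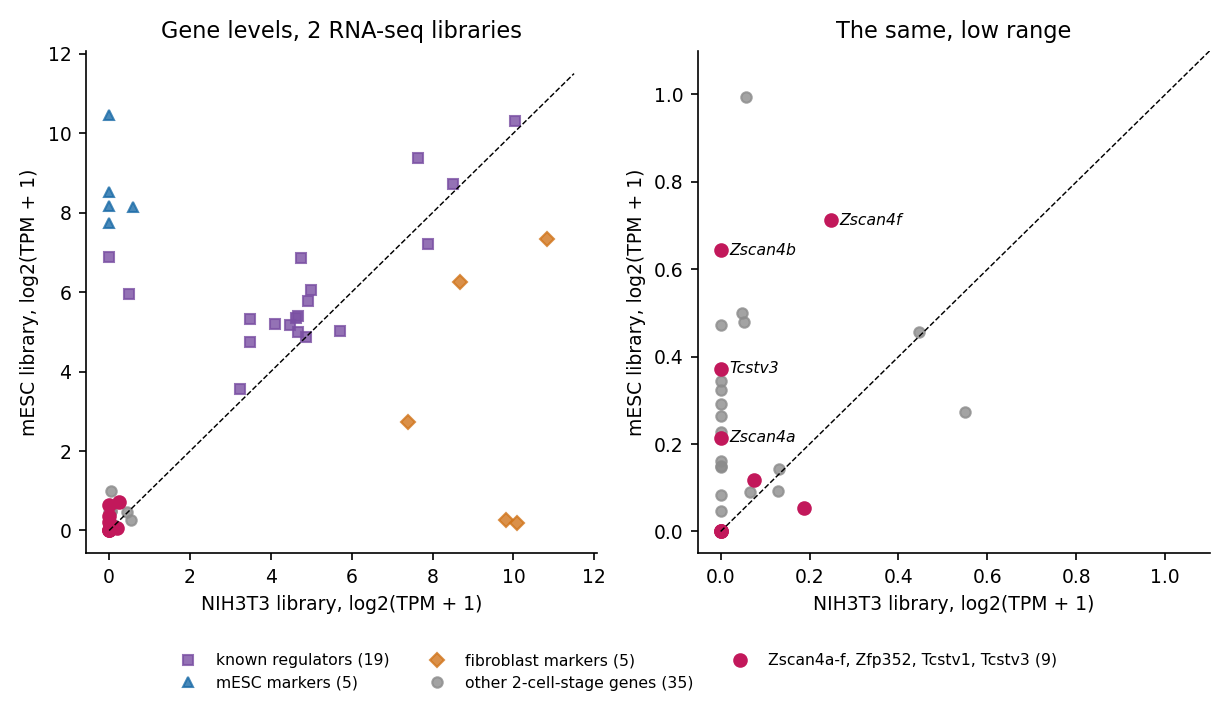
Level in the mESC library (vertical) against the NIH3T3 library (horizontal), each as log2(TPM + 1) of a gene's highest transcript, for the 9 genes (red), 35 other 2-cell-stage genes (grey), 19 regulators (purple) and the markers of both cell types, with equal levels on the dashed line. The right panel enlarges the low range, where all 9 genes and all 35 others lie under 1 TPM and most points with a count are above the line.

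The genes most like Zscan4f, the highest of the 9, were sought among 7546 protein-coding genes that likewise had no peak in any list. Likeness was the distance between genes in log2(TPM + 1) over the 2 libraries. The nearest were Muc2, a mucin gene, at a distance of 0.0380, the olfactory receptor gene Olfr365 at 0.0410, Gm20878 at 0.0421, Itgal, an integrin gene of leukocytes, at 0.0423 and Car5b, a carbonic anhydrase gene, at 0.0483. With 2 libraries these 5 share a low level in both and nothing more specific.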

How the data were processed

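RNA-seq and ChIP-seq files of 9 of 12 samples were used. The 3 input libraries were not analysed here. RNA-seq was quantified by the authors with kallisto 0.46.1 against GENCODE M19. They deposited TPM and estimated counts of each transcript. For ChIP-seq, the authors aligned reads to mm10 with bowtie2 2.3.5.1, removed blacklisted reads and called peaks per library (macs2 2.2.6, q-value up to 0.01). Their deposited lists hold a score, a fold enrichment (ratio to local background), −log10 p and −log10 q values and the summit offset. Versions of the tools are as in the submitters' processing notes.

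Estimated counts were summed per gene. A gene's TPM was that of its highest transcript, and a gene was detected at 3 counts. Counts were rounded to whole numbers for 95% exact Poisson intervals and for intervals of ratios, the latter from the exact binomial interval of the share of counts. Fold changes used TPM plus 1 and a 4-fold limit. A peak met a gene by at least 1 bp of the body with 5 kb on each side. Gene coordinates and transcripts came from GENCODE M21 (GRCm38, the assembly of mm10), and all 15 transcripts of the 9 genes had the same version and length as in the deposited tables. Words were counted on both strands, over 21 chromosomes for the genome. Transcripts and promoters were aligned with MAFFT 7.526.

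The genes and lists were chosen with earlier results of these data known. Named were the 9 genes, the 5 highest in mESCs of each list and those with a peak where at most 5, the nearest protein-coding gene on each side of a cluster (genes within 1 Mb), and the 5 genes most like Zscan4f. Of the regulators under this rule, 1 is not reported here. Other names were added after values were seen. With 1 library per group no test was made. Computations used Python 3.11.15 with SciPy 1.17.1, NumPy 2.4.6, pandas 2.3.3 and Matplotlib 3.10.9. The code was tested on simulated data, and 8 of 8 checks passed. Alternatives changed the count minimum, transcripts, pseudocount, level, filter, fold, window, overlap rule, q-value limit and word length.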

Additional observations from a re-analysis of the deposited data

How the results depend on the processing

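Of 27 alternatives for 8 results, 20 left the value within the set limit and 7 moved it. With a minimum of 10 estimated counts, 2 of the 9 genes were detected in mESCs in place of 5, and 0 in NIH3T3 cells in place of 2. With a pseudocount of 0.1 TPM, 1 of the 9 genes (Zscan4b, 6.63-fold) and 2 of the 35 other 2-cell-stage genes (Gm21761 and Tmem92) were at least 4-fold higher in mESCs in place of 0, where 14.1% of the 26357 genes were. With 50 kb on each side, a window added after the data were seen, 1 of the 9 genes (Tcstv3) met a peak in place of 0. Of the 35 genes, 1 met a peak in the gene body alone and 9 within 20 kb, in place of 2. The shares of all protein-coding genes that met a peak in the changed windows are not given here. No paired analysis was possible because every group holds 1 library. Depth limits the results: at 3 counts a gene of the group is at 0.0784 to 0.271 TPM in mESCs, and the depth of the ChIP-seq libraries is unknown.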
